A study of Rattus norvegicus with 6 samples.

Results

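Expression of the enzymes that write, copy and remove DNA methylation was examined in primary rat brain microvascular endothelial cells (rBMECs) treated with homocysteine (Hcy) or vehicle (Veh). The 10 genes were chosen by symbol: Dnmt1, Dnmt3a, Dnmt3b, Uhrf1, Uhrf2, Tet1, Tet2, Tet3, Tdg and Mbd4. All 10 were found among the 33566 genes of the deposited count table, each as a single row, and all 10 were among the 14603 genes tested. The cells came from SD rats aged 18 to 22 days and were used after 1 passage. Their source was the cerebral cortex, which the paper gives as the cerebral forebrain. Libraries of poly(A) RNA were made from 3 samples labelled 100 μM Hcy for 24 h and from 3 given sterile water as vehicle. The treatment text of the labels also names a 50 μM Hcy solution, so the dose is given in 2 ways. No source says whether the 3 libraries of a group came from separate cell isolations, and p-values then measure only the spread between these libraries.

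DNA methylation in mammals is the addition of a methyl group to cytosine, mostly where cytosine is followed by guanine (CpG). Dnmt3a and Dnmt3b place new methyl groups. Dnmt1 copies the pattern onto the new strand after replication, guided by Uhrf1, which binds CpG sites methylated on one strand alone. Tet1, Tet2 and Tet3 oxidise methylcytosine, and the DNA glycosylase Tdg excises the later oxidation products for base excision repair. The methyl donor is S-adenosylmethionine, and its product S-adenosylhomocysteine, which Hcy can replenish, inhibits methyltransferases. The comparison therefore asked whether transcripts of this machinery changed with Hcy. Methylation itself was not analysed here.

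Group values below are means ± SD (n = 3 libraries per group). Libraries held 14024997 to 16764584 counts. At these depths 3 counts, taken as the floor of detection, correspond to 0.178 to 0.215 CPM (counts relative to the scaled library total, as edgeR's cpm gives them), a limit that covers counting error alone. The labelled cell type was checked against markers. The summed level of the 11 endothelial markers found in the table ran from 9453 to 9879 CPM in Hcy and from 7822 to 9038 CPM in Veh, with every Hcy library above every Veh library. Of the 10 tested, 0 passed in edgeR's test, 4 at the unadjusted p (3 higher and 1 lower in Hcy, where 13.4% of all genes passed it) and 1 with DESeq2. Without Veh replicate 3, edgeR's test passed Vwf and Kdr as higher, at log2 fold changes of 0.26 and 0.23 (adjusted p 0.0118 and 0.0325), and Tek as lower, at -0.31 (adjusted p 0.0167), where Kdr had 0.37 with all libraries. The smallest p was that of Vwf, the von Willebrand factor gene, at 2934 ± 72.7 CPM with Hcy against 2288 ± 284 with Veh (edgeR log2 fold change 0.36, adjusted p 0.0932). In CPM, the adherens junction gene Cdh5 stood at 1962 ± 104 with Hcy against 1796 ± 231 with Veh, the VEGF receptor Kdr at 505 ± 23.8 against 390 ± 69.5, and the angiopoietin receptor Tek at 244 ± 13.9 against 289 ± 25.5. Cldn5 had 0 counts in all libraries, and Pecam1 was not matched by symbol. The paper shows the proteins of both in rBMECs, Claudin-5 by Western blot and CD31 by staining. The 0 counts were therefore not read as absence of Cldn5, and their cause was not tested. Of 4 smooth muscle markers, 3 fell in Hcy by edgeR's test (Acta2, Tagln and Cnn1), with the call of Acta2 lost without Hcy replicate 1, 2 or 3 or Veh replicate 1, and the summed level of the list ran from 673 to 702 CPM in Hcy and from 1120 to 1348 CPM in Veh, while Myh11, a defining marker of mature smooth muscle, had 15 to 25 counts in each library. Fewer cells of a type and less RNA per cell cannot be told apart in such bulk libraries. Summed levels of 6 astrocyte markers did not exceed 1.66 CPM and those of 7 microglia markers 2.01 CPM in any library. The sum of 7 pericyte markers was 5.13 to 7.93 CPM in Hcy and 3.82 to 4.57 CPM in Veh, that of 5 neuron markers 6.85 to 9.77 and 5.22 to 7.18 CPM, that of 5 oligodendrocyte markers 10.6 to 12.2 and 11.2 to 11.3 CPM, and that of the 4 matched fibroblast markers 35.7 to 57.8 and 57.5 to 83.9 CPM. On the second principal component, Veh replicate 3 lay at 30.4 and Veh replicates 1 and 2 at -15.9 and -19.0. Where that library decides a call or an overlap, the value without it is given too. Calls gained or lost when a library is left out are to be read beside the counts over all genes. By edgeR's test 341 genes passed with all libraries, 957 without Veh replicate 3 and 80 to 151 without any other library.

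The transcripts of maintenance methylation, Uhrf1 and Dnmt1, rose with Hcy, and the other members did not pass the test. By edgeR's quasi-likelihood test with p adjusted over all genes (Benjamini-Hochberg, threshold 0.05), 2 of the 10 members passed, both higher in Hcy. When any library other than Veh replicate 3 was left out, 1 passed. Dnmt1 then lost its call, at a log2 fold change of 0.42 to 0.48. Among all genes tested 1.32% passed as higher in Hcy with all libraries. In either direction 341 genes passed with all libraries, and 80 to 151 when a library other than Veh replicate 3 was left out. When a log2 fold change of 1 in either direction was also required, 0 members were called, against 0.486% of all genes (0.253% higher and 0.233% lower in Hcy). That count was also 0 with DESeq2 and with the unadjusted p. In the lower direction 0 members passed the adjusted p, against 1.01% of all genes, and the unadjusted p and DESeq2 also gave 0. Hcy values lay wholly apart from Veh values in the same 2 members, Uhrf1 and Dnmt1, both higher in Hcy. Groups were apart in 20.1% of all genes, 10.8% higher and 9.27% lower in Hcy. Of the 10 members 4 had a fitted change below 0, against 53.1% of all genes.

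**Figure D1:**
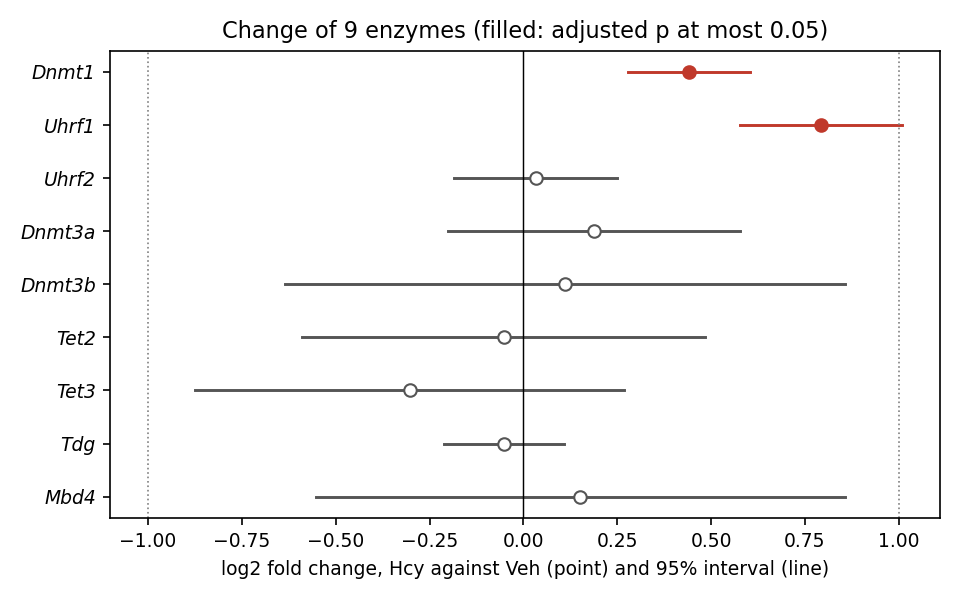
Log2 fold change of Hcy against Veh (point) with its 95% interval (line) from edgeR for 9 enzymes, where filled points mark an adjusted p of at most 0.05 and dotted lines a log2 fold change of 1 in either direction. Uhrf1 at 0.79 and Dnmt1 at 0.44 lie to the right of 0 with their whole intervals, and the intervals of the other 7 cross 0 (Tet1, at the floor of detection, is left out).

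The promoter windows of Uhrf1 and Dnmt1 are shown because these members moved together and because theirs alone, among the member windows searched, held the letters of an E2F motif. E2F factors bind such letters in front of many S phase genes. Windows of 300 bases, 250 before and 50 after a listed gene start, came from RefSeq on build GRCr8 and covered 9 members in 16 windows. Dnmt3b was not among them. All 4 letter forms, TTTCGCGC, TTTGGCGC, TTTCCCGC and TTTGCCGC, were searched on both strands, a search chosen after the test results and the windows had been seen. In the sequences below, 5′ to 3′ on the gene's strand, capitals mark every match. Dnmt1 is on the minus strand at chr8:27762792-27763091, and the Uhrf1 window, the third of 3 listed for that gene, is on the plus strand at chr9:1222936-1223235.
Dnmt1: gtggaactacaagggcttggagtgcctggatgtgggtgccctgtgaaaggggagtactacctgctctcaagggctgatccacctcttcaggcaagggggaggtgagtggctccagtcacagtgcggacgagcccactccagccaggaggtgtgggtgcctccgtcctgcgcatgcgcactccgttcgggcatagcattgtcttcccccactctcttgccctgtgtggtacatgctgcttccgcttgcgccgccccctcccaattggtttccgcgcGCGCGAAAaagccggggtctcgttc
Uhrf1: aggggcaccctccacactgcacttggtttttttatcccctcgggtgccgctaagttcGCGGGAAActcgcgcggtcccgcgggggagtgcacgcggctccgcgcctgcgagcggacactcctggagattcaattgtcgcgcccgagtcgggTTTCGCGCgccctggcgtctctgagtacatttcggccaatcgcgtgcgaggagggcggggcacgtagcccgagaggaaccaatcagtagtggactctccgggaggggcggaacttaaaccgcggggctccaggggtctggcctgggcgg

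The Dnmt1 window held 1 match, TTTCGCGC on the opposite strand, which begins 25 bases after the gene start. The Uhrf1 window held 2 matches, TTTCCCGC on the opposite strand and TTTCGCGC on the gene's own strand. Of all 33469 windows 2.14% held at least 1 of the 4 forms, and 0.326% held TTTCGCGC. Of 17 windows of replication genes, a list that holds no member, 10 held a form (58.8%). The share was 12.5% of the 16 member windows, 8.33% of the 12 windows of mitosis genes, 16.7% of those of methyl donor supply and 15.4% of those of base excision repair. Of 9 windows of genes that read DNA methylation, 0 held a form. Several members have more than 1 window, where these lists have 1 per gene. Counted by gene, 2 of the 9 members with a window held a form (22.2%), against 2.37% of all genes, and the members were searched knowing which of them had risen. CpG counts did not set these 2 members apart. The Uhrf1 window shown held 35 CpG, its other 2 windows 8 and 13, and the Dnmt1 window 17, while that of Tet2 held 39, that of Uhrf2 28 and those of Dnmt3a, Tdg and Mbd4 21 each. The median was 16.5 over the member windows and 7 over all windows. It was 23 for replication, 24 for mitosis, 19 for methyl donor supply, 24 for base excision repair and 20 for readers. Each letter form holds a CpG, so the share over all windows is an unlike baseline for these lists. A role of E2F factors was not tested. A match is a run of letters and not evidence of binding, and the other member windows merely lack these letters.

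Uhrf1 encodes the ring finger protein that recruits Dnmt1 to newly replicated DNA, and it changed most among the members that passed. In the table's annotation it lies on the minus strand of chromosome 9, between positions 10738222 and 10757954, while the GRCr8 window above is on the plus strand, and the table's own build is not named. Its level was 40.1, 40.9 and 35.3 CPM in Hcy replicates 1, 2 and 3 and 22.7, 23.4 and 21.0 CPM in Veh replicates 1, 2 and 3. Every Hcy library was above every Veh library. The mean was 38.8 ± 3.02 CPM with Hcy against 22.4 ± 1.20 CPM with Veh, from 1760 and 1053 counts in all. This was a 1.73-fold rise with a 95% interval of 1.49 to 2.01 (log2 fold change 0.79, standard error 0.10, edgeR quasi-likelihood test, adjusted p = 0.00483). Uhrf1 passed under each of 13 alternatives, with an adjusted p from 4.4e-08 to 0.0407.

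Dnmt1, the maintenance methyltransferase, rose by less. The table places it on the minus strand of chromosome 8, between positions 21922515 and 21968495. Levels of 75.2, 75.5 and 69.6 CPM were measured in Hcy replicates 1, 2 and 3, and 54.2, 52.8 and 55.2 CPM in Veh replicates 1, 2 and 3. The lowest Hcy library stood above the highest Veh library. Group means were 73.4 ± 3.33 CPM and 54.0 ± 1.21 CPM, from 3337 and 2538 counts. The rise was 1.36-fold with a 95% interval of 1.21 to 1.52 (log2 fold change 0.44, standard error 0.07, edgeR quasi-likelihood test, adjusted p = 0.0160). With all 6 libraries it passed under the 7 alternatives, with an adjusted p of 0.0435 with the replicate number as a block. The call was lost when any library other than Veh replicate 3 was left out, that is Hcy replicate 1, 2 or 3 or Veh replicate 1 or 2, at an adjusted p between 0.0692 and 0.0940. The log2 fold change stayed between 0.42 and 0.48 in the 6 fits that left out a library.

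Uhrf2 (chromosome 1, 248228496 to 248291978, plus strand) has the same domains as Uhrf1 but is not able to replace it in maintenance methylation. Its level was 60.3, 65.0 and 67.5 CPM in Hcy replicates 1, 2 and 3 and 65.5, 67.9 and 55.0 CPM in Veh replicates 1, 2 and 3. The groups overlapped, and Veh replicate 3 was the lowest of the 6. The 95% interval of the Hcy to Veh fold ran from 0.880 to 1.19 (edgeR log2 fold change 0.03, adjusted p 0.930). The difference between the paralogues was examined through the ratio of their levels per kb of listed gene length within each library, which does not depend on how libraries are scaled. Uhrf1/Uhrf2 was 0.617, 0.584 and 0.486 in Hcy replicates 1, 2 and 3 and 0.321, 0.319 and 0.355 in Veh replicates 1, 2 and 3. All 3 Hcy ratios exceeded all 3 Veh ratios (exact permutation test, two-sided, n = 3 per group, p = 0.1, the smallest this design can give, and 0.2 after adjustment over 6 ratios). Uhrf1 thus made up 35.9% ± 2.87 of the summed UHRF level per kb in Hcy and 24.9% ± 1.13 in Veh. Uhrf1/Dnmt1, at 0.810 ± 0.0274 in Hcy and 0.636 ± 0.0477 in Veh, and Dnmt1/Tdg, at 0.610 ± 0.0262 and 0.433 ± 0.0142, also did not overlap between groups, with the same exact p = 0.1 each. The other 3 ratios, Dnmt1/Dnmt3a, Dnmt1/Tet2 and Tet2/Tet3, overlapped between groups (exact permutation p = 0.4, 0.4 and 0.3). The overlap of the first 2 came from Veh replicate 3 alone. Dnmt1/Dnmt3a was 3.06, 3.00 and 2.52 in Hcy replicates 1, 2 and 3 against 2.05, 2.11 and 3.36 in Veh replicates 1, 2 and 3, and Dnmt1/Tet2 was 7.98, 6.61 and 6.35 against 4.00, 4.14 and 8.30, so that Hcy ratios lay above those of Veh replicates 1 and 2. These 6 ratios were chosen after the members' values had been seen.

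**Figure D2:**
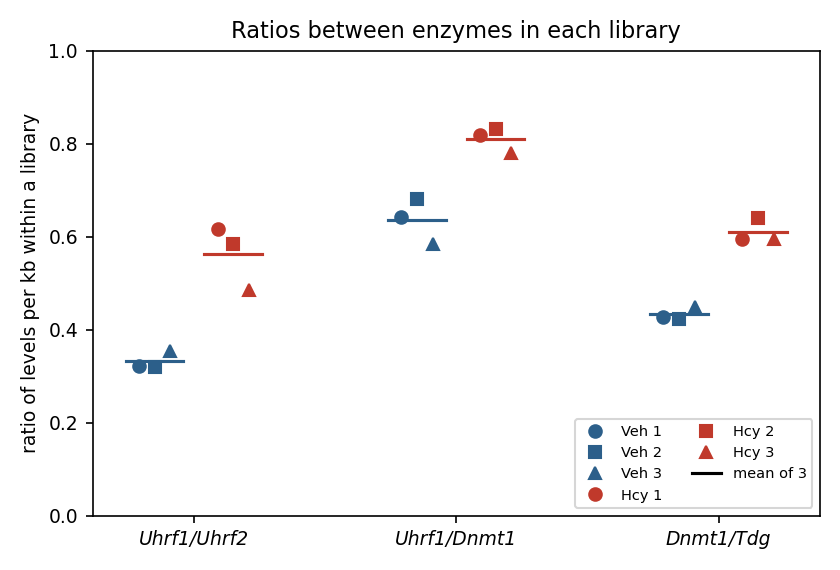
Ratios of levels per kb of listed gene length within each library, for Veh (blue) and Hcy (red), with a symbol per replicate and a bar at the mean of 3. The 3 ratios shown are those, of 6 computed, whose groups did not overlap, so their separation follows from the choice. In each the Hcy libraries lie above the Veh libraries (exact permutation p = 0.2 after adjustment over 6 ratios).

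Of the de novo methyltransferases, Dnmt3a (chromosome 6, 28235695 to 28340577, plus strand) was at 17.8, 18.3 and 20.0 CPM in Hcy replicates 1, 2 and 3 and at 19.2, 18.1 and 11.9 CPM in Veh replicates 1, 2 and 3. Veh replicate 3 was apart from the other 5 libraries, which overlapped. The log2 fold change was 0.19 (95% interval -0.20 to 0.58, edgeR adjusted p = 0.717) and became 0.01 without Veh replicate 3 (adjusted p = 0.986), with at most 0.32 when another library was left out. Dnmt3b (chromosome 3, 149131785 to 149208786, plus strand), the methyltransferase of early development and of pericentromeric repeats, had 23, 45 and 36 counts in Hcy replicates 1, 2 and 3 and 28, 46 and 25 counts in Veh replicates 1, 2 and 3. At 2.27 ± 0.694 CPM with Hcy and 2.11 ± 0.714 CPM with Veh, the groups overlapped, and the interval of the log2 fold change ran from -0.63 to 0.86 (edgeR adjusted p = 0.932). This interval is too wide to resolve a change of the size seen in Uhrf1. The catalytically inactive cofactor Dnmt3l had 0 to 5 counts per library.

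Among the TET dioxygenases, Tet1 (chromosome 20, 27366213 to 27437427, plus strand) had 2, 4 and 0 counts in Hcy replicates 1, 2 and 3 and 4, 3 and 0 counts in Veh replicates 1, 2 and 3. These counts lie at or near the floor of detection in both groups, and no fold change is given. Tet2 (chromosome 2, 238720835 to 238803024, minus strand) was at 12.4, 15.0 and 14.4 CPM in Hcy replicates 1, 2 and 3 and at 17.7, 16.7 and 8.72 CPM in Veh replicates 1, 2 and 3. The Hcy libraries thus lay between the lowest Veh library, replicate 3, and the other 2. The log2 fold change of Tet2 was -0.05 (95% interval -0.59 to 0.49, edgeR adjusted p = 0.958), and -0.31 without Veh replicate 3 (adjusted p = 0.190). Tet3 (chromosome 4, 115066309 to 115157263, minus strand) was at 6.46, 10.7 and 7.70 CPM in Hcy replicates 1, 2 and 3 and at 12.5, 11.2 and 6.92 CPM in Veh replicates 1, 2 and 3. The groups of Tet3 overlapped through Veh replicate 3 alone, as all Hcy libraries lay below Veh replicates 1 and 2. Its log2 fold change was -0.30 (95% interval -0.87 to 0.27, edgeR adjusted p = 0.688), and it ran from -0.53 without Hcy replicate 2 to -0.13 without Veh replicate 1 as libraries were left out, with -0.15 without Hcy replicate 1 and -0.51 without Veh replicate 3 (adjusted p = 0.170). Neither Tet2 nor Tet3 passed with or without that library. Tet2 made up 56.8% ± 4.52 of the summed TET level per kb in Hcy and 51.7% ± 1.90 in Veh, Tet3 nearly all of the rest, and Tet1 0.685% ± 0.611 and 0.555% ± 0.483.

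The glycosylases Tdg and Mbd4 excise thymine and oxidised or deaminated bases opposite guanine. Tdg (chromosome 7, 27193998 to 27214236, minus strand) was at 75.1, 70.1 and 69.6 CPM in Hcy replicates 1, 2 and 3 and at 75.4, 74.2 and 73.0 CPM in Veh replicates 1, 2 and 3. The groups overlapped, and the 95% interval of the fold ran from 0.863 to 1.08 (edgeR log2 fold change -0.05, adjusted p 0.832). Tdg had about as many counts as Dnmt1, 3256 in Hcy and 3490 in Veh, and its interval excludes a rise as large as that of Dnmt1. Mbd4 (chromosome 4, 147746186 to 147756294, minus strand) had 16, 26 and 28 counts in Hcy replicates 1, 2 and 3 and 27, 23 and 15 counts in Veh replicates 1, 2 and 3. Its groups overlapped too, with an interval of the log2 fold change from -0.55 to 0.86 (edgeR adjusted p = 0.899).

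Levels of different genes were compared per kb of the listed gene length. The order was the same in both groups. In Veh the level per kb was 21.1 ± 0.336 for Tdg, 17.6 ± 1.93 for Uhrf2, 9.13 ± 0.205 for Dnmt1, 5.80 ± 0.312 for Uhrf1 and 3.82 ± 0.915 for Dnmt3a in CPM per kb. Below these stood Tet2 at 1.85 ± 0.636, Tet3 at 1.68 ± 0.483, Mbd4 at 0.805 ± 0.173, Dnmt3b at 0.641 ± 0.217 and Tet1 at 0.0234 ± 0.0206 CPM per kb. In Hcy, Dnmt1 reached 12.4 ± 0.562 and Uhrf1 10.1 ± 0.784 CPM per kb. The ranges of neighbours in this order overlapped in both groups for Tet2 and Tet3 and for Mbd4 and Dnmt3b, and for no other neighbours. Dnmt1 made up 71.1% ± 2.16 of the summed level per kb of the 3 DNMT genes in Hcy and 67.4% ± 5.61 in Veh, where replicates 1, 2 and 3 gave 64.8%, 63.6% and 73.8%. The groups overlapped through Veh replicate 3.

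**Figure D3:**
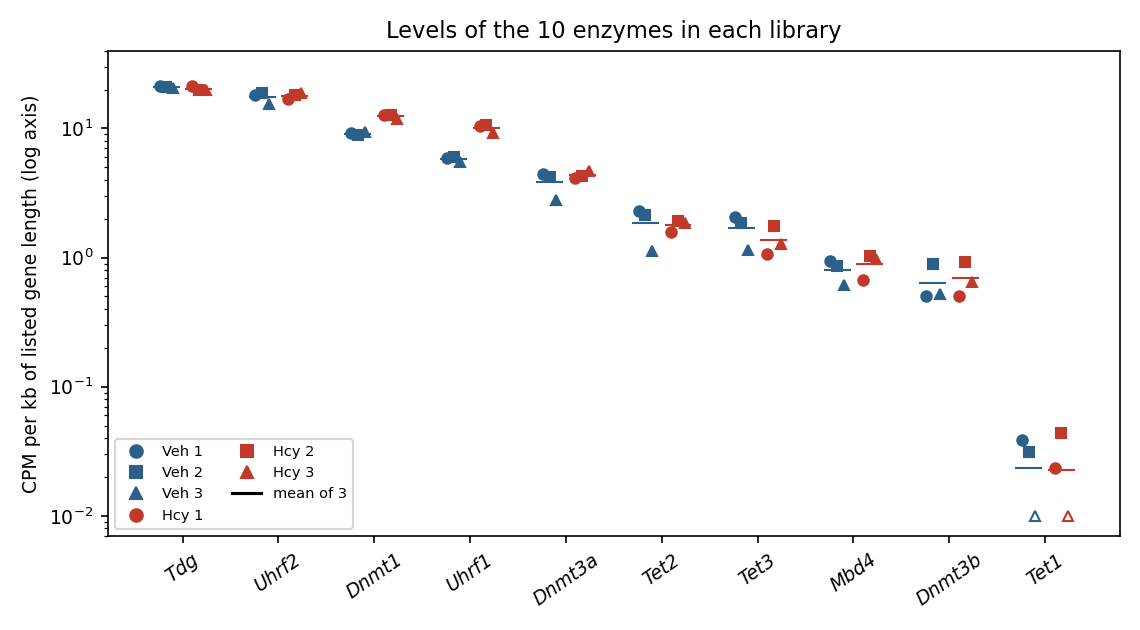
Level of each of the 10 enzymes in CPM per kb of listed gene length (log axis) in every library, with Veh in blue, Hcy in red, a symbol per replicate and a bar at the mean of 3. Open symbols at the bottom mark Tet1 at 0 counts, and Uhrf1 and Dnmt1 are the 2 genes whose Hcy libraries lie above all Veh libraries.

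Genes that work with these enzymes were read from lists. Of 19 tested partners and regulators of the DNMT and TET enzymes, 3 rose and 0 fell by the adjusted p. For comparison, 341 of all 14603 genes passed in either direction, or 2.34%. Lig1, the DNA ligase that joins Okazaki fragments, stood at 22.1 ± 1.59 CPM with Hcy against 13.0 ± 1.23 CPM with Veh (edgeR log2 fold change 0.76, adjusted p 0.0131). Idh2, a mitochondrial enzyme that yields the 2-oxoglutarate used by TET enzymes, had a log2 fold change of 0.47 (adjusted p = 0.0229), and Pcna, the replication clamp that binds Dnmt1, one of 0.52 (adjusted p = 0.0391, both from edgeR's test). Pcna is also counted in the replication list below. These 3 calls were lost when Hcy replicate 1, 2 or 3 or Veh replicate 1 or 2 was left out, and 5 partners passed without Veh replicate 3, Ezh2 (log2 fold change 0.48) and Cdca7 (0.61) besides these. Over all genes, 80 to 151 passed in the former fits and 957 without Veh replicate 3. With the replicate number as a block, Lig1 and Idh2 passed and Pcna did not. The median log2 fold change of the list was 0.00, and that of all genes tested -0.02.

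Downstream of the glycosylases, 1 of 16 tested genes of base excision repair and related factors passed, against 2.34% of all genes. At the unadjusted p, 3 were higher and 2 lower in Hcy, where 13.4% of all genes passed it. The groups lay apart in 6 genes as higher and 2 as lower, against 20.1% of all genes. Among the 6 was Neil2, with 1, 5 and 4 counts in Hcy replicates 1, 2 and 3 and 1, 0 and 1 in Veh replicates 1, 2 and 3. These counts lie at or near the floor, and only library scaling set Hcy replicate 1 apart from Veh replicates 1 and 3. Gadd45b, a stress-induced gene tied to active demethylation, fell to 57.3 ± 4.81 CPM with Hcy against 86.5 ± 4.17 CPM with Veh (edgeR log2 fold change -0.59, adjusted p 0.0114). This call was lost without Hcy replicate 2 and without Hcy replicate 3. Over all genes, 95 and 81 passed in those fits, and 957 without Veh replicate 3. Without Veh replicate 3, 3 genes passed, Gadd45b as lower and, as higher, the abasic site endonuclease Apex1 (log2 fold change 0.29, edgeR adjusted p = 0.0275) and Gadd45a (0.26, adjusted p = 0.0468). Of 12 tested genes of methyl donor supply, 0 passed in edgeR's test, 1 with the unadjusted p and 1 with DESeq2. The smallest p was that of Nnmt, which spends S-adenosylmethionine on nicotinamide, with a log2 fold change of 0.41 in edgeR (adjusted p 0.120). Nnmt passed as higher without Veh replicate 3 (log2 fold change 0.49, edgeR adjusted p = 0.0160) and with DESeq2. Ahcy, which splits S-adenosylhomocysteine and is named here for that role, averaged 117 ± 8.88 CPM with Hcy against 106 ± 10.3 CPM with Veh (log2 fold change 0.15, adjusted p = 0.572 from the same test).

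Genes whose silence is tied to DNA methylation were counted as well. Counts per gene do not tell the 2 parental copies apart, so they cannot show whether such silence held. Of 14 tested imprinted genes, which keep one parental copy silent, 0 passed in edgeR's test, 3 with the unadjusted p (1 higher and 2 lower in Hcy, where 13.4% of all genes passed it in either direction) and 0 with DESeq2. The 2 lower were Plagl1 (log2 fold change -0.63) and Impact (-0.29), with edgeR adjusted p of 0.357 and 0.237. Sgce had the smallest p, with a log2 fold change of 0.30 in edgeR (adjusted p 0.107), and it passed as higher without Veh replicate 3 (0.32, adjusted p 0.0374). H19, Peg10, Meg3 and Kcnq1ot1, also on the imprinted list, were not matched by symbol. Gnas, listed on 2 rows, was read from the first. Of 19 germline genes that somatic cells methylate at their promoters, 10 had 0 counts in all libraries and 4 had enough counts to be tested, of which 0 passed in edgeR's test, with the unadjusted p or with DESeq2. Piwil2, a piRNA pathway gene with the smallest p of these 4, had 1, 3 and 1 counts in Hcy replicates 1, 2 and 3 and 3, 6 and 6 in Veh replicates 1, 2 and 3, at or near the floor. The summed level of the 19 genes was 0.934 to 1.91 CPM in Hcy and 1.31 to 2.10 CPM in Veh.

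Many transcripts of DNA replication rose with Hcy, as Uhrf1 and Dnmt1 did. Of 22 replication genes, all tested, 11 rose and 0 fell by the adjusted p in edgeR's test, where 1.32% of all genes rose, and the median log2 fold change was 0.53 against -0.02 over all genes. The Hcy libraries were all above the Veh libraries in 20 of the 22 genes, against 10.8% of all genes, and Gins2 lay wholly below. The helicase subunit Mcm4 reached 87.5 ± 4.96 CPM with Hcy against 54.0 ± 0.719 CPM with Veh (log2 fold change 0.70, adjusted p = 0.00242). Its partners Mcm2, Mcm5 and Mcm3 had log2 fold changes of 0.68, 0.80 and 0.67, and the replication factors Cdc45 and Mcm10 of 0.80 and 0.99 (adjusted p of at most 0.0128 each, from edgeR's test). Of 15 mitosis genes tested, Top2a rose (log2 fold change 0.76, adjusted p = 0.0432), 11 were higher at the unadjusted p (1086 of all 14603 genes were), and the median was 0.50. With the replicate number as a block, 10 replication genes and 0 mitosis genes passed. The replication count was 16 without Veh replicate 3 and 4 or 5 without any other library, while the median log2 fold change of the list was 0.67 without Veh replicate 3 and 0.50 to 0.58 in the other 5 fits. Over all genes, 957 passed without Veh replicate 3 and 80 to 151 without any other library. Top2a lost its call without any library other than Veh replicate 3. The summed level of the replication list ran from 1137 to 1257 CPM in Hcy and from 773 to 916 CPM in Veh, with Veh replicate 3 the highest of its group. The part of replication and of the smooth muscle transcripts in the rise of Uhrf1 and Dnmt1 was not tested.

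**Figure D4:**
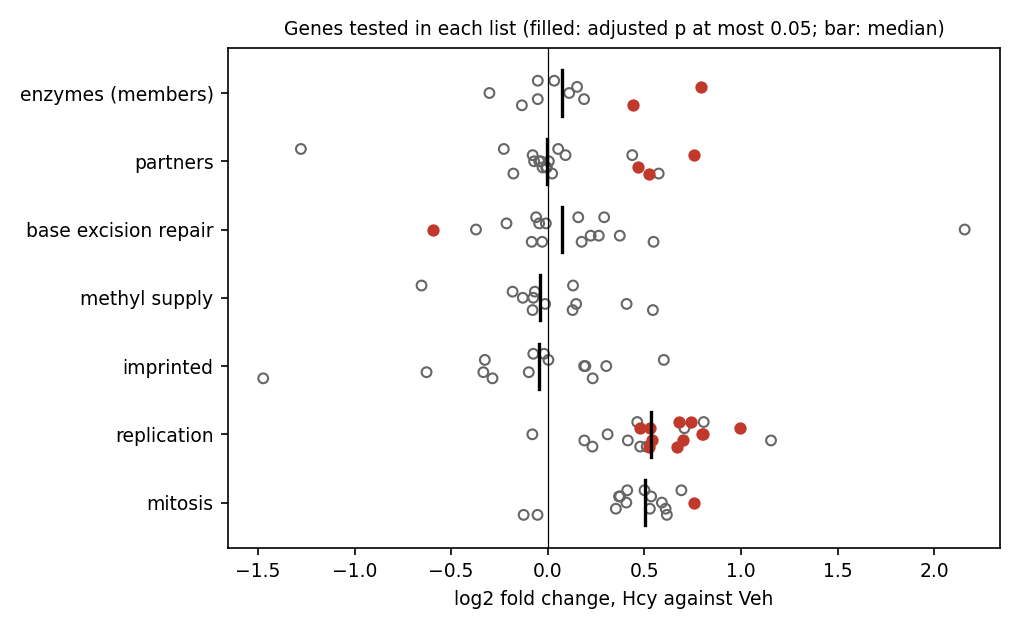
Log2 fold change of Hcy against Veh for each gene tested in 7 lists (points, spread vertically for legibility, genes of low count included) with the median of each list (bar), where filled points passed the adjusted p. The replication and mitosis lists have medians of 0.53 and 0.50, and the enzyme list holds Uhrf1 and Dnmt1 as its 2 filled points.

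The genes closest in profile to the 3 members with the smallest p were sought among 11787 others with a mean of at least 1 CPM, by the root mean square distance of centred log2 CPM over the 6 libraries. For Uhrf1 these were Necab3, Vldlr and Tspan18, at distances of 0.05, 0.07 and 0.07. For Dnmt1 they were Relt, Ushbp1 and Rph3al, each at 0.03. For Tet3 the closest named gene was Itga1, at 0.03, and the next 2 were a locus without a gene name and AABR07037451.2, each at 0.06. With 6 libraries and so many genes searched, such closeness is a description of these libraries.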

How the data were processed

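RNA-seq libraries of rBMECs, 3 Hcy and 3 Veh, were compared. The deposited table holds raw read counts for each gene and library, not normalized, beside gene positions and lengths. The submitters' processing notes name fastp, HISAT2 2.2.1, StringTie 2.2.3, featureCounts 2.0.6 and DESeq2 1.42.0, among others, and the build mRatBN7.2. The table itself names no build, and its positions on chromosome 1 reach 282724300, so its build may not be mRatBN7.2. Positions are therefore given as listed and were not matched to the GRCr8 promoter windows. Strand use in counting is not given in the sources used here. In the deposited positions the only gene overlapping a member is a pseudogene inside Dnmt3a with 0 counts. A table of the authors' own comparison with DESeq2 (normalized values, fold changes, p-values) was not used.

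Computation used R 4.3.3, edgeR 4.0.16 and DESeq2 1.42.0. The test took the 14603 genes whose total over both groups was 10 counts or more. It was edgeR's quasi-likelihood test with TMM scaling and group as the only term, adjusted over these genes by the Benjamini-Hochberg method. Standard errors and 95% intervals came from the same fit. "Rose" and "fell" mean an adjusted p not above 0.05, and a log2 fold change of 1 in either direction was a second threshold. CPM are TMM-scaled. Genes named besides the members were, in each list, those that passed (up to 6 by p) or the one with the smallest p, and defining endothelial markers. Lists of other cell types are given by their sums. Ahcy, Dnmt3l, Myh11, Gins2 and Neil2, and genes that passed only under an alternative, were named outside this rule after their values were seen. The members and lists were chosen with earlier results of these data known. A further list is not reported here. Replicate numbers were not used as pairs, because the correlations of deviations between same-numbered libraries were -0.01, 0.11 and 0.05. Those between libraries of different number ran from -0.14 to 0.09. Scripts were tested on simulated data. Alternatives were DESeq2, its size factors, library totals, other count filters, a prior count of 2, the replicate block, the unadjusted p and leaving out each library.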

Additional observations from a re-analysis of the deposited data

How the results depend on the processing

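Of 117 fold changes of the 9 members computed under alternatives, 103 kept their direction and their side of the threshold. Uhrf1 passed throughout. The remainder came from leaving out 1 library. The log2 fold change then ran from 0.42 to 0.48 for Dnmt1, which lost its call in 5 of the 6 such fits, from -0.14 to 0.42 for Dnmt3b, from -0.053 to 0.091 for Uhrf2, from -0.31 to 0.13 for Tet2 and from -0.0073 to 0.31 for Mbd4, none of the last 4 past the threshold. The number of members that rose was 1 or 2. Over all genes, 341 passed the adjusted p with edgeR, 604 with DESeq2, 1955 with the unadjusted p and 80 to 957 with a library left out, the highest without Veh replicate 3. With the fold threshold 71 were called, 109 without the count filter, 374 with the unadjusted p and 39 to 112 with a library left out. The causes were not tested. With the replicate block, 298 genes passed the adjusted p, Uhrf1 and Dnmt1 among them, and no member changed its call. Hcy replicates 2 and 3 correlated best with the Veh library of their own number, at 0.11 and 0.05. Hcy replicate 1 did not, at -0.01 against 0.09 with Veh replicate 3. Counts were low for Dnmt3b and Mbd4, under 50 per library, and for Tet1, at most 4. Whether depth or the spread between libraries set the wide intervals of these genes was not tested.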
